A study of Rattus norvegicus with 3 samples.

Results

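Isolated narrow shared H3K14Ac regions are stretches of the rn4 rat genome where each of 3 ChIP-Seq libraries of the Cll had a peak and where no other such stretch lay nearby. Peaks of the 3 libraries that overlapped by at least 1 bp were merged, and 11189 merged regions on chromosomes 1 to 20 and X held a peak of every library. The isolated narrow regions were those under 2000 bp wide and more than 100 kb, edge to edge, from the nearest other region called in all 3 libraries. There were 3002 of them, which is 26.8% of the 11189 shared regions and 27.8% of the 10801 shared regions under 2000 bp. The other narrow shared regions, 7799 with a shared neighbour within 100 kb, and the 388 wide shared regions of 2000 bp or more served for comparison. A distance limit of 50 kb gave 5267 regions and one of 200 kb 1423. The regions were chosen by the position and width of the peaks and by their presence in all 3 libraries, so these values, and the fold and q of the same peaks, are given as a description and were not tested.

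Acetylation of histone H3 at lysine 14 is written by acetyltransferases such as GCN5, PCAF and the MYST enzymes KAT6 and KAT7, and it is found mostly at active promoters and enhancers. The mark is read by bromodomains, among them those of the chromatin remodelling subunit PBRM1. Soon after birth the rodent cerebellum is still growing, as granule cell precursors divide in the external layer while Purkinje cells extend their dendrites.

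The libraries came from the Cll of Gunn rats (Hds Blue:Gunn-UDPGTj) at P9, a strain in which homozygous pups (jj) cannot conjugate bilirubin and are hyperbilirubinemic. Library jj replicate 1 was made from 1 jj animal, jj replicate 2 from a pool of 3 jj animals, and ctrl from a pool of 3 normobilirubinemic littermates, all with an antibody to H3K14Ac on homogenate of the whole tissue. Sequencing took 2 runs for jj and 1 run for ctrl. With 1 ctrl library no spread between ctrl replicates exists, jj and ctrl were not tested against each other, and library, run, animals and condition cannot be told apart. In whole tissue, fewer cells carrying the mark and less mark per cell cannot be told apart either.

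Each peak carries a fold, which is its fragment coverage over the coverage expected at the site, and the −log10 of a p-value and of a q-value, the p-value adjusted for multiple testing. All are averages over the peak as the peak caller gave them. The lists give no number of reads. The background coverage can be derived from the commonest combination of fold and p in a list, and it was 0.589, 0.345 and 0.539 fragments per base in jj replicate 1, jj replicate 2 and ctrl. At these backgrounds the median fold of the isolated narrow regions stood for a coverage of about 12.1, 7.47 and 10.3 fragments, in the same order. The median peak of jj replicate 2 thus rested on the fewest fragments.

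The isolated narrow regions together spanned 2.63 Mb. They took up 9.65% of the 31120 peaks of jj replicate 1, 21.1% of the 14256 peaks of jj replicate 2 and 13.6% of the 22026 peaks of ctrl. Every one of the 3002 held exactly 1 peak of each library. The narrowest region was 294 bp wide, the median 794 bp and the widest 1994 bp, with quartiles of 630 and 1043 bp. The peaks themselves had a median width of 759, 570 and 650 bp in jj replicate 1, jj replicate 2 and ctrl. The jj replicate 1 peak was the widest of the 3 in 2476 regions (82.5%) and the jj replicate 2 peak the narrowest in 2150 (71.6%). The order of widths thus followed the order of background coverage, and the part of coverage in it was not tested.

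The fold in jj replicate 1 ranged from 2.61 to 17.7 with a median of 8.22 and quartiles of 6.56 and 9.70. In jj replicate 2 it ranged from 2.87 to 17.1 around a median of 6.30, with quartiles of 5.12 and 7.53. In ctrl it ranged from 2.93 to 18.6 around a median of 7.32, with quartiles of 5.86 and 8.84. A fold is relative to its own library, so the difference between these medians is not a difference in acetylation. The median −log10 q was 19.9, 7.23 and 12.4 in jj replicate 1, jj replicate 2 and ctrl. Ranked among all peaks of its own list, the median region stood at percentile 78.5, 58.8 and 71.7 in jj replicate 1, jj replicate 2 and ctrl. A −log10 q of at least 3 in every library was reached by 2544 regions (84.7%). The regions below it numbered 150, 365 and 236 in jj replicate 1, jj replicate 2 and ctrl, so weak calls were most frequent in the library with the lowest background coverage.

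Set against the other shared regions, the isolated narrow regions were close in fold to the narrow regions with a near neighbour. Those had median folds of 8.69, 6.50 and 7.68 in jj replicate 1, jj replicate 2 and ctrl and a median width of 755 bp. The wide regions had lower median folds, 4.54, 4.64 and 4.67 in the same order, at a median width of 2422 bp. A fold is averaged over the whole peak, and these differences were not tested. Among the 11189 shared regions alone, the median isolated narrow region stood at percentile 46.4, 48.6 and 46.8 in jj replicate 1, jj replicate 2 and ctrl, slightly under the middle in each. Of the 100 shared regions with the highest fold, isolated narrow regions made up 36, 27 and 35 in jj replicate 1, jj replicate 2 and ctrl. Their share of all shared regions was 26.8%. Narrow regions with a near neighbour made up the other 64, 73 and 65, and none was wide. Of the 100 with the lowest fold, 7, 6 and 4 were isolated narrow regions, 35, 44 and 43 were narrow regions with a near neighbour and 58, 50 and 53 were wide. Wide regions thus held more of the lowest folds than either narrow class in each library.

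The peaks of the 3 libraries lay almost on top of each other in most of these regions. The median distance between peak midpoints was 39.5 bp between jj replicate 1 and jj replicate 2, 29.5 bp between jj replicate 1 and ctrl and 37 bp between jj replicate 2 and ctrl. The midpoints were within 100 bp of each other in 84.5%, 89.4% and 85.6% of the regions. The stretch covered by all 3 peaks had a median length of 528 bp, and its share of the region's width had a median of 72.3%. Across the 3002 regions the fold of jj replicate 1 had a Spearman correlation of 0.67 with that of jj replicate 2 and of 0.85 with that of ctrl, and the folds of jj replicate 2 and ctrl had one of 0.78. The points of these correlations are regions of the same genome, share their libraries and were all required to have a peak in each library. The single-animal jj library was thus closer in rank to ctrl than to the pooled jj library, and the pair with the lowest correlation was the pair of jj libraries. The part of the lower coverage of jj replicate 2 in this was not tested. The 7799 narrow regions with a near neighbour gave 0.61, 0.80 and 0.76 for the same pairs.

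Within a library, width and fold were related in different ways. Over the 3002 regions the Spearman correlation of peak width with fold was −0.25, 0.26 and 0.05 in jj replicate 1, jj replicate 2 and ctrl. By bins of width, the median fold was highest from 500 to 1000 bp, where 1957 regions (65.2%) had 9.18, 6.65 and 8.16 in jj replicate 1, jj replicate 2 and ctrl. The 189 regions under 500 bp had median folds of 6.69, 4.99 and 5.49. The 199 regions of 1500 bp or more had 5.78, 5.47 and 5.75. The bin under 500 bp mixed weak peaks with some of the strongest, since the 3 narrowest regions of all, 294 to 317 bp wide, had folds of 11.8 to 15.2, 11.7 to 13.6 and 14 to 16.1 in the same order.

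The strongest isolated narrow region, taken as the one with the highest percentile in its weakest library, was chr12:41481026-41481529. It was 504 bp wide, lay 116 kb from the next shared region, and had folds of 17.7, 17.1 and 18.6 in jj replicate 1, jj replicate 2 and ctrl. Its −log10 q was 240, 124 and 198. The next was chr15:31146745-31147213, 469 bp wide and 1044 kb from its shared neighbour, with folds of 16.5, 17.0 and 18.1 and −log10 q of 975, 495 and 743. Both regions had their highest fold in ctrl.
Another, chr16:30414849-30415185, was 337 bp wide with folds of 16.2, 15.4 and 17.8. On the X chromosome, chrX:34563109-34563540 had folds of 13.9, 14.9 and 14.8, and chrX:116310458-116311040 had folds of 13.6, 14.0 and 13.8. These X regions were 719 kb and 1499 kb from the next shared region.
The other 5 of the strongest 10 were chr2:59527069-59527522, chr10:29082099-29082750, chr18:43044021-43044314, chr15:26730746-26731299 and chr19:45446043-45446626. Over all 10 the folds lay between 13.4 and 17.7 in jj replicate 1, 13.3 and 17.1 in jj replicate 2, and 13.8 and 18.6 in ctrl, and the widths from 294 to 652 bp. Each of the strongest 10 was thus narrower than the median region. The region on chromosome 18 was also the narrowest of all 3002, at 294 bp, with folds of 15.2, 13.6 and 16.1. No gene was assigned to any of these positions, because no rn4 annotation was used here, and their sequences were not analysed here.

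The listed −log10 p of a peak was set beside the one computed from its fold and the background coverage of its library, and the median ratio of listed to computed was 1.70, 1.19 and 1.35 in jj replicate 1, jj replicate 2 and ctrl. In 7 regions the listed −log10 p was at least 10 times the computed one in every library. Such a pair of fold and p needs a higher expected coverage at the site than the background of the library. The largest was chr10:29082099-29082750, with −log10 q of 3030, 1500 and 2550 in jj replicate 1, jj replicate 2 and ctrl. Its folds of 13.4, 13.8 and 14.6 then need an expected coverage above 51.3, 83.4 and 48.8 times the background of the same libraries. These multiples are lower bounds, because the calculation could not reach p-values as small as those listed. They are therefore not compared between libraries or regions. In chr2:61089151-61090598 the folds were only 6.84, 7.14 and 7.33, but the −log10 q was 2220, 1080 and 1720. The expected coverage there was above 163, 257 and 157 times the background, again as lower bounds. In chr2:156715773-156716958 the −log10 q was 1420, 742 and 1130 and the lower bounds of the multiples were 119, 178 and 114. By this calculation these regions were covered by many more fragments than their folds over the library background would give, in jj and ctrl alike.
The remaining 4 were chr15:31146745-31147213, chr14:28434095-28434829, chr4:111616523-111617463 and chr4:187125584-187126005. Their multiples in jj replicate 1, from 36.8 to 86.7, are lower bounds too. In jj replicate 2 the calculation reached the listed p at all but the first of them, with multiples of 86.5, 102 and 84.3. A −log10 q of 100 or more was reached by 23, 13 and 20 isolated narrow regions in jj replicate 1, jj replicate 2 and ctrl, against 52, 34 and 49 of all shared regions. The number of copies of these sequences in the genome was not analysed here.

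A small group of regions had the same outline in each library. In 31 isolated narrow regions (1.03%) both edges of the 3 peaks fell within 20 bp of each other, whereas the largest edge difference was 138 bp in the median region. The 31 had a median width of 504 bp and median folds of 12.2, 12.2 and 13.3 in jj replicate 1, jj replicate 2 and ctrl, with median −log10 q of 108, 70.0 and 98.8. They included 9 of the strongest 10 regions and 6 of the 7 regions with high expected coverage, so sharp outlines went with strong peaks. Of the 31, 23 had a fold above the median of the isolated narrow regions in all 3 libraries. Among the narrow regions with a near neighbour the same was seen in 34 of the 7785 that held 1 peak per library (0.437%). At the other end, 14 isolated narrow regions (0.466%) had no base covered by all 3 peaks, being joined through overlaps of pairs. Their median folds were 3.51, 3.80 and 3.61 in jj replicate 1, jj replicate 2 and ctrl, under the lower quartile in each library.

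The weakest regions, those with the lowest percentile in their best library, were chr12:3122106-3122567, chr14:93116138-93117661 and chr1:243307707-243308084. The first had folds of 2.61, 2.87 and 2.93 in jj replicate 1, jj replicate 2 and ctrl, with −log10 q of 1.25, 1.16 and 1.65. The second had folds of 3.16, 3.48 and 3.14, and the third had 3.09, 3.62 and 3.27. All are close to the end of the lists, whose lowest −log10 q was 1.02, 1.00 and 1.01.

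The folds of the regions just inside and just outside each limit of the choice overlapped. The widest regions that passed were 1994, 1993 and 1992 bp wide, and chr7:73825721-73827714, the first of them, had folds of 5.23, 5.65 and 5.46 in jj replicate 1, jj replicate 2 and ctrl. The narrowest regions that failed by width, at more than 100 kb from another shared region, were 2000, 2007 and 2011 bp wide. In the first of these, chr4:89684140-89686139, the folds were 3.56, 4.89 and 4.86. In jj replicate 1 the folds went from 4.52 to 5.70 over the 3 inside and from 3.56 to 6.70 over the 3 outside. By distance, the closest regions that passed lay 100017, 100086 and 100168 bp from the next shared region, the first being chr11:30817561-30819113 with folds of 6.49, 6.15 and 5.22. The farthest that failed lay 100000 bp away, in chr6:32253218-32255009 with folds of 5.26, 5.54 and 5.80, and 99982 bp in a pair of regions on chromosome 17 that are each other's neighbour. Here the jj replicate 1 folds went from 6.04 to 6.74 inside and from 5.26 to 9.89 outside.

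The distance to the next shared region had a median of 191 kb, with quartiles of 133 and 348 kb. The most isolated region by this measure was chr16:90013161-90013656, at 3825 kb, with folds of 9.30, 5.43 and 6.40 in jj replicate 1, jj replicate 2 and ctrl. It was followed by chr18:86658872-86659687 at 3350 kb, with folds of 9.88, 7.47 and 9.88, and chr2:163267017-163268072 at 3176 kb, with folds of 4.30, 4.41 and 6.44. The next were chr3:22040323-22041443 at 2994 kb and chr6:119572258-119573170 at 2843 kb. Strong and weak regions were both found among these 5, whose folds in ctrl ranged from 3.33 to 9.88.

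Isolation held only against regions called in all 3 libraries. Another peak, called in 1 or 2 libraries, lay within 100 kb of most of them, and 717 regions (23.9%, 95% interval 22.4 to 25.5) had no other peak of any library within 100 kb. All intervals are exact Clopper-Pearson intervals and cover counting error only. No other peak lay within 50 kb of 48.3% of the regions and within 10 kb of 90.0%. The median distance to any other peak was 47.6 kb, and it ranged from 0.622 to 546 kb. A single such neighbour was found at 876 regions and 5 or more at 161 (5.36%), with at most 9. When peaks with a −log10 q under 3 were left out of every own list, the rule gave another set of 2774 regions, and 1717 of these (61.9%) had no other peak left within 100 kb.
The neighbours were mostly weak peaks of a single library. Of the 4835 regions called in 1 or 2 libraries within 100 kb, 3841 (79.4%) came from 1 library. Their median −log10 q, taking the higher where 2 libraries had a peak, was 1.74. The list of jj replicate 1 alone gave 2573 of them (53.2%), ctrl alone 992 (20.5%) and jj replicate 2 alone 276 (5.71%). Among all 25370 regions called in 1 or 2 libraries these sources gave 53.8%, 21.5% and 5.96%, so the surroundings of the isolated narrow regions had nearly the same mixture. Regions of jj replicate 1 and ctrl together numbered 835 (17.3%) and were stronger, with a median −log10 q of 5.24.

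The region farthest from any peak was chr1:44921018-44922979, with none within 546 kb. It was 1962 bp wide, with folds of 7.68, 7.55 and 8 in jj replicate 1, jj replicate 2 and ctrl, and the peaks of its libraries were 1962, 864 and 855 bp wide. Second was chr10:21424096-21424415, 320 bp wide and 513 kb from any peak, with folds of 14.4, 13.3 and 15.6. Next was chr13:39832700-39833308 at 464 kb, with folds of 11, 7.17 and 10.2. The other 2 of the first 5 were chr10:74586067-74586895 at 377 kb and chr12:30481788-30482547 at 369 kb. Over all 717 regions without another peak within 100 kb the median folds were 8.40, 6.46 and 7.45, and over the other 2285 they were 8.16, 6.24 and 7.28. Regions standing alone thus had slightly higher median folds in each library, a difference that was not tested.

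Folds were lower in the more remote regions. In the 1048 regions 100 to 150 kb from the next shared region the median folds were 8.61, 6.60 and 7.76 in jj replicate 1, jj replicate 2 and ctrl. In the 305 regions at 500 to 1000 kb they were 7.32, 5.75 and 6.47, and in the 134 regions beyond 1000 kb they were 6.75, 5.57 and 6.23. The decrease was seen in every library. Over all 3002 regions the Spearman correlation of distance with fold was weak, at −0.17, −0.16 and −0.16. The regions share their libraries, and neighbouring regions share a distance.

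The isolated narrow regions were spread more evenly over the chromosomes than the shared regions as a whole. Counted up to the last peak of each chromosome, their density ranged from 8.68 per 10 Mb on chromosome 15 to 13.2 on chromosome 8. The density of all shared regions ranged from 16.2 per 10 Mb on chromosome X to 79.0 on chromosome 10. The share of shared regions that were isolated and narrow was therefore lowest on chromosome 10, with 102 of 874 (11.7%), and highest on chromosome X, with 161 of 260 (61.9%). A distance rule leaves fewer regions where shared regions are dense. On chromosomes 10, 12 and 20 together, 204 of 1535 shared regions (13.3%) were isolated and narrow, and their median folds of 8.42, 6.48 and 7.56 in jj replicate 1, jj replicate 2 and ctrl were close to those of all isolated narrow regions.
Many of them followed each other along a chromosome. Runs of 5 or more consecutive shared regions that were all isolated and narrow numbered 170 and held 1249 regions (41.6%). The longest run had 24 regions on chromosome X, from 92200955 to 121001322, over 28.8 Mb.

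Peaks on chromosome X were weaker in each library. The 161 isolated narrow regions on X had median folds of 7.06, 5.04 and 6.05 in jj replicate 1, jj replicate 2 and ctrl, whereas the 2841 on the autosomes had 8.30, 6.38 and 7.41. Their median widths were 762 and 796 bp. Regions on X were also more remote, with a median distance of 367 kb. Compared at 100 to 200 kb alone, the 49 regions on X had median folds of 7.53, 5.68 and 6.69, and the 1530 autosomal regions had 8.49, 6.57 and 7.72. At 200 to 500 kb the 54 on X had 6.46, 5.05 and 5.82 and the 930 autosomal ones 8.19, 6.26 and 7.20. At 500 to 1000 kb the 40 on X had 6.84, 4.78 and 5.67 and the 265 autosomal ones 7.41, 5.81 and 6.78. Beyond 1000 kb the 18 on X had 5.70, 4.91 and 5.45 and the 116 autosomal ones 6.85, 5.64 and 6.32. On the autosomes the median folds fell at every step in each library, and on X they did so in ctrl only. The part of distance in the lower folds on X was not tested. The 94 narrow regions on X with a near neighbour also had lower median folds, 7.39, 5.58 and 6.37, than the 7705 on autosomes, 8.70, 6.52 and 7.69. The difference was therefore shared with other narrow regions of X, and its cause was not tested.

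Ranks were used to set jj beside ctrl within each region. Among the 11189 shared regions, each fold was given its percentile in its own library. Both jj libraries stood above ctrl in 755 isolated narrow regions (25.1%), both stood below in 820 (27.3%), and the jj libraries lay on either side of ctrl in 1427 (47.5%). Over all shared regions the shares were 24.3%, 26.6% and 49.1%. This scale was chosen after the values were seen. It centres each library on the same middle, which largely fixes the balance between the directions, so nothing is read from that balance. The narrow regions with a near neighbour had 24.6%, 26.5% and 48.8%, and the wide regions 11.3%, 22.2% and 66.5%. By percentiles of the whole lists, both jj libraries stood above ctrl in 479 isolated narrow regions and both below in 755. The counts thus depended on the scale of the ranks, and neither was tested.
The region where the lower jj percentile most exceeded that of ctrl, by percentiles of the whole lists, was chr15:78711086-78711787, with folds of 7.94, 6.23 and 3.37 in jj replicate 1, jj replicate 2 and ctrl. The −log10 q there was 11.2, 6.26 and 1.36. It was followed by chr1:151053680-151055111, with folds of 5.36, 5.09 and 3.18, and chr2:78969742-78970554, with folds of 5.62, 6.56 and 3.57. The other 2 of these 5 were chr19:42330278-42331190, with ctrl at 3.23, and chr3:165213577-165214584, with ctrl at 4.11. In these 5 the −log10 q of ctrl was between 1.16 and 2.75, and the ctrl peak stood at percentiles 3.59 to 38.8 of its list.
In the opposite direction stood chr13:19638783-19639550, with folds of 3.20, 4.22 and 6.83 in jj replicate 1, jj replicate 2 and ctrl. It was followed by chr8:16389743-16390418, with folds of 3.19, 4.25 and 5.31, and chr2:256857324-256858315, with folds of 3.08, 3.44 and 3.81. The others were chr1:160817371-160817799 and chr11:9873933-9874487. The jj replicate 1 fold was between 3.08 and 3.30 in these 5, at percentiles 3.44 to 19.7 of its list, and the jj replicate 2 peak stood at percentiles 5.64 to 29 of its own. Both jj peaks were thus in the lower part of their lists.
With percentiles among shared regions the leading regions were stronger. In chr13:103353735-103354386 the folds were 10.8, 8.64 and 6.52 in jj replicate 1, jj replicate 2 and ctrl, which are percentiles 88.8, 90.6 and 33.6. In chr1:90971123-90972883 they were 7.03, 5.52 and 9.70, which are percentiles 28.9, 32.4 and 86.6. These regions were picked for their difference, and with 1 ctrl library none was tested.

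The jj libraries were also called by the authors with ctrl as the control, and these lists did not choose the regions, although they were made from the same libraries. A peak of jj replicate 1 called against ctrl overlapped 1967 of the 3002 isolated narrow regions (65.5%, 95% interval 63.8 to 67.2), beside 71.0% of all shared regions. A peak of jj replicate 2 called against ctrl overlapped 11 of them (0.366%, 0.183 to 0.655), beside 0.518% of all shared regions. Both lists use the same ctrl library, so they are given side by side and not set against each other. For jj replicate 1 the share was 72.0% among the narrow regions with a near neighbour and 92.8% among the wide regions. For jj replicate 2 these shares were 0.244% and 7.22%. The differences between these classes were not tested, and the classes differ in width. The lists held 12563 and 170 peaks in all, and the animals, run and coverage of the jj libraries differ too.
Where jj replicate 1 was called against ctrl, the fold of that peak ranged from 1.34 to 5.87 with a median of 2.34, and it covered 66.3% of the median region. The coverage a fold is set against can differ between peaks of these lists, and the folds are not read as jj over ctrl.

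Isolated narrow regions called in jj replicate 1 against ctrl had a larger median width and higher median folds than those not called. The 1967 regions called had a median width of 878 bp and median folds in the own lists of 8.53, 6.65 and 7.67 in jj replicate 1, jj replicate 2 and ctrl. The 1035 not called had 630 bp and folds of 7.38, 5.46 and 6.49. The median fold of called regions was thus higher in ctrl as well as in jj. By width, 10.1% of the 189 regions under 500 bp were called (6.16 to 15.3), 62.7% of the 1957 from 500 to 1000 bp (60.6 to 64.9), 83.9% of the 657 from 1000 to 1500 bp (80.8 to 86.6) and 84.9% of the 199 above (79.2 to 89.6). The narrow regions with a near neighbour rose in the same way, from 17.4% (13.7 to 21.5) through 70.6% (69.4 to 71.8) and 88.4% (86.6 to 90.0) to 88.6% (85.0 to 91.5). The difference between the classes at any width was not tested. A wider region has more bases for a peak to overlap, and the part of width in the call was not tested. Over these widths the share called did not follow fold in the isolated narrow regions. Their median folds in jj replicate 1, jj replicate 2 and ctrl were 9.18, 6.65 and 8.16 from 500 to 1000 bp. From 1500 bp they were 5.78, 5.47 and 5.75.
The share called also fell with distance, from 69.6% at 100 to 150 kb (66.7 to 72.3) to 59.7% at 500 to 1000 kb (53.9 to 65.2) and 50.0% beyond 1000 kb (41.2 to 58.8). The calls in jj replicate 2 against ctrl were too few to show whether their share changed with distance. They numbered 1 of 1048, 3 of 305 and 2 of 134 regions in these bins. The bins between, starting at 150, 200 and 300 kb, had 1 of 531, 1 of 496 and 3 of 488. The share in that list was 0.366% of all isolated narrow regions, beside 0.518% of all shared regions. In jj replicate 1 against ctrl, 44.1% were called on chromosome X (36.3 to 52.1) and 66.7% on the autosomes (65.0 to 68.5). At 100 to 200 kb alone these shares were 46.9% (32.5 to 61.7) and 69.8% (67.4 to 72.1). Among narrow regions with a near neighbour they were 51.1% on X and 72.3% on the autosomes. The lower share on X was thus not particular to the isolated ones. Fold fell along with the share called in each of these comparisons. Regions without another peak within 100 kb were called in 67.5% (63.9 to 70.9) and the others in 64.9% (62.9 to 66.9), intervals that overlap. Of the 31 regions with the same outline in each library, 14 (45.2%) were called, and of the strongest 10 regions 4 were. Over all isolated narrow regions the share was 65.5%, and over all shared regions 71.0%. Among narrow regions with a near neighbour, 23 of the 34 with the same outline were called (67.6%), beside 72.0% of that class.

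Of the 11 regions called in jj replicate 2 against ctrl, 7 were in the list of jj replicate 1 against ctrl too, a count from which nothing is read since ctrl enters both lists. The highest fold in either list over these 7 was at chr15:78711086-78711787, with 5.66 in jj replicate 1 and 5.67 in jj replicate 2, at −log10 q of 7.28 and 3.57. It is the same region that led jj over ctrl by percentiles of the whole lists, but not by percentiles among shared regions. Next was chr4:5620407-5621551, with folds against ctrl of 2.38 and 2.15 and folds in the own lists of 7.66, 7.58 and 6.55 in jj replicate 1, jj replicate 2 and ctrl. In these regions the ctrl peak had the lowest fold and the lowest percentiles of the 3.
In the other 5 the folds against ctrl were low, with 1.61 and 1.5 at chr14:90877943-90878938, 1.38 and 1.31 at chr4:111616523-111617463 and 1.48 and 1.31 at chr14:28434095-28434829. At chr2:156715773-156716958 they were 1.40 and 1.28, and at chr2:61089151-61090598 they were 1.35 and 1.22. Of these 5, 4 belong to the 7 regions with high expected coverage, where small folds have a large −log10 q. In each of the 5 the ctrl peak stood above that of jj replicate 1, by fold and by both kinds of percentile. The own lists thus do not order both jj libraries above ctrl there.
The 4 regions called in jj replicate 2 against ctrl only were chr2:78969742-78970554, chr6:17670938-17671888, chr4:142648898-142650242 and chr19:57683903-57684720, with folds against ctrl of 5.12, 4.82, 3.93 and 1.69. Own folds of jj replicate 2 and ctrl were 6.56 and 3.57, 4.78 and 3.99, 7.58 and 5.86, and 10.1 and 10.5. By percentiles of the whole lists jj replicate 2 stood at 63 against 25.9, 32.9 against 36.9, 79.6 against 57.4 and 98.8 against 97.3. Among shared regions its percentiles were 53.8 against 2.48, 18.5 against 4.63, 74.4 against 23.5 and 98.6 against 94.9. Which library stood higher thus depended on the scale in the second and the fourth region. These 4 were named after their values were seen. The share called in jj replicate 2 rests on these 11 regions. It was 0.167% (5 regions) with a −log10 q of at least 3 in that list, and 0.696% (22 of 3160 regions) when no ctrl peak was required of a region. With a distance limit of 200 kb it was 0.632% (9 of 1423 regions). The background coverage of jj replicate 2 was lower than that of ctrl, and its part in the count was not tested.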

How the data were processed

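H3K14Ac ChIP-Seq of 3 libraries was used as deposited. For each library the authors aligned paired-end reads to rn4 (bowtie2), removed duplicates and made a list of broad peaks (MACS2). They made a further list of each jj library with ctrl as the control. HOMER annotation was not used here. Tool versions and options are not given in the sources used here. The deposited fold enrichment is a ratio of coverage over the coverage expected at the site. The p-value and q-value of each peak were deposited as −log10 values. Animals were pooled before sequencing, so no value per animal of a pool exists.

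Peaks were merged, counted and overlapped with Python 3.11.15, numpy 2.4.6, pandas 2.3.3 and scipy 1.17.1, and positions count from 1. The 512 regions called in all 3 libraries on unassembled sequences were left out. Background coverage was derived from the commonest combination of fold and p in each list, taking the fold as height plus 1 over background plus 1 and p as a Poisson probability. Expected coverage at single regions was derived from their fold and p in the same way, as if fold and p were constant along the peak. For the smallest listed p-values this calculation stopped short, so the multiples given there are lower bounds. Merging, distances and backgrounds were checked on simulated data. The simulated regions lay well away from the limits of width and distance, and the simulated backgrounds were made with the formula used to derive them. Expected coverage at single regions was not simulated. Shares have exact Clopper-Pearson intervals of 95%, for counting error only. With 1 ctrl library, jj and ctrl were not tested against each other.

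The regions, lists and rules were chosen with earlier results of these data known. Regions were named as the 10 strongest by the smallest fold percentile of the 3 libraries, the 5 farthest from a shared region and the 5 farthest from any peak. Also named were up to 10 regions called in both lists against ctrl, the 5 with the largest jj excess and the 5 with the largest ctrl excess in percentile, 3 on each side of each limit and the 3 weakest. A rule for regions with more than 1 peak in a library found none. Percentiles among shared regions, the bins of width and distance, the limit of 20 bp on edges, the limit of 10 times on p, the 3 narrowest regions and the comparisons by chromosome were chosen after seeing the data. Alternatives were other limits on width, distance and −log10 q, other rules for distance and overlap, unassembled sequences included, and each library left out.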

Additional observations from a re-analysis of the deposited data

How the results depend on the processing

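Of 127 values computed under the alternatives, 103 were kept and 24 moved. No rule for a reversed value was set. A count was taken as kept within 1.5 times, a share within its interval, a median percentile within 1 SD of the jj libraries (13.9), and a midpoint distance within 1 SD over the pairs of libraries (5.2 bp). By this wide SD the median percentile in ctrl, 71.7, counted as kept at 60.5 and 61 with −log10 q of at least 3 and 5 and at 59.4 without jj replicate 2. The number of isolated narrow regions was 5267 with a distance limit of 50 kb and 1423 with 200 kb, by construction. Under these limits the share called in jj replicate 1 against ctrl was 68.0% and 61.6%, that in jj replicate 2 was 0.285% and 0.632%, both within its wide interval, and the share without another peak within 100 kb was 13.6% and 21.6%. The share called in jj replicate 1 was 58.1% under a width limit of 1000 bp. With −log10 q of at least 3 or 5 in every own list it was 71.5% and 76.7%, the share without another peak was 61.9% and 59.7%, and the median percentile in jj replicate 1 was 64.4 and 64.6. At 5 the midpoint distance was 33.5 bp between the jj libraries and 31 bp between jj replicate 2 and ctrl. With −log10 q of at least 3 in the lists against ctrl, the shares called were 46.6% in jj replicate 1 and 0.167% (5 regions) in jj replicate 2. No other peak lay within 10 kb of 90.0% and within 50 kb of 48.3%. With each library left out in turn, the number of regions ranged from 3095 to 3443, the share called in jj replicate 1 from 48.4% to 64.0%, that in jj replicate 2 from 0.261% to 0.696%, and the share without another peak from 23.8% to 27.9%. The share called in jj replicate 1 was 62.4% without ctrl. The 48.4% came without jj replicate 2, where the midpoint distance of jj replicate 1 and ctrl was 40.5 bp, and 0.696% (22 regions) came without ctrl. A library left out gives no midpoint or percentile. Stricter limits remove weak peaks by construction, and for the other changes the cause was not tested. No paired analysis was possible because ctrl has 1 library and no result comes from a test between groups. Without read totals, how far depth limits weak peaks is not known.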
